A study of Mus musculus with 2 samples.

Results

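Granzymes D, E and F are serine proteases that mouse killer cells pack into lytic granules. The cells described here were non-cycling CD8 T cells from mouse tumours that held 3 or more transcripts of Gzmd, Gzme and Gzmf combined, and they are called granzyme cells below. They were 400 of the 2077 non-cycling CD8 T cells and of the 27362 cell barcodes kept in all. A transcript was counted as a unique molecular identifier (UMI), the random tag that marks each captured RNA molecule. A cell entered the CD8 T gate with at least 2 UMIs of Cd3d, Cd3e and Cd3g, at least 2 of Cd8a and Cd8b1, no UMI of Cd4, at most 5 of the macrophage genes C1qa, C1qb and C1qc, and fewer than 3 of the division genes Mki67, Top2a, Nusap1 and Birc5. The remaining 1677 cells of the gate, with fewer than 3 UMIs of the 3 granzymes, are called the other CD8 T cells. The cells were selected on their measured UMI counts of Gzmd, Gzme and Gzmf, so the levels of Gzmd, Gzme and Gzmf in the granzyme cells are given as a description.

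Both groups of mice were BALB/c, aged 5 weeks, and carried CT26 tumours, grown from a colorectal carcinoma line of that strain placed under the skin. The Control library came from mice on a normal diet. The Arg library was read as coming from mice on a diet of equal calories that lacked arginine, because the study's design names that diet while the label of the library itself does not. Feeding began 1 week before the tumour cells were given, and tumours were collected on day 20, digested with enzymes and enriched for CD45-positive leukocytes with magnetic beads. Each diet had 1 droplet library, and the labels do not say how many mice entered a library. No difference between the libraries therefore has a replicate check, no test was made, and every interval is a 95% interval for counting error only.

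Cytotoxic T cells and natural killer (NK) cells kill by releasing perforin, which opens the target membrane, together with granzymes that cleave proteins inside the target. In mice Gzmd, Gzme, Gzmf, Gzmg and Gzmc lie beside Gzmb in a single gene cluster, and they are known from strongly stimulated killer cells rather than from resting ones. CD8 T cells in tumours span cells with features of memory, which can renew themselves, and late effector cells that carry inhibitory receptors such as PD-1 (Pdcd1) and TIM-3 (Havcr2).

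Genes that the gate did not use bear on T cell identity, while the high shares of Cd3e and Cd8a follow from the gate. Cd3e was found in 99.4% of the 327 Arg granzyme cells and 98.6% of the 73 Control granzyme cells, and Cd8a in 98.5% and 97.3%. Trac, the constant gene of the alpha-chain of the T cell receptor and not used by the gate, was found in 96.6% and 100%. The gamma-delta T cell gene Trdc was found in 3.67% and 1.37%, the NK receptor gene Ncr1 in 10.4% and 4.11%, and Foxp3 of regulatory T cells in 0.306% and 2.74%. Tcrg-C2, a constant gene of the receptor's gamma chain, was more frequent, in 7.03% of Arg and 46.6% of Control granzyme cells. In the other CD8 T cells Tcrg-C2 was found in 3.37% and 27.0%. The defining leukocyte gene Ptprc, which encodes CD45, was found in every granzyme cell of both libraries.

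The 3 genes are close copies of each other, on the minus strand of chromosome 14 in GRCm38 (GENCODE M21), all protein coding. Gzme lies at chr14:56117626-56120625, Gzmd at chr14:56129556-56132608, Gzmg at chr14:56156582-56159579, Gzmf at chr14:56205263-56211417, Gzmc at chr14:56231441-56234656 and Gzmb at chr14:56258838-56262260. Because the counting was made from 3′ ends, the similarity of the transcripts limits how well their reads can be told apart. The Gzmd and Gzme transcripts were 94.8% identical, Gzmd and Gzmf 86.9%, and Gzme and Gzmf 86.4%. Over the last 400 bases the identities were 95.8%, 84.7% and 86.1%, and no stretch of 90 bases was shared exactly by any pair. The split between Gzmd and Gzme is therefore uncertain where the counting could divide reads, and that between Gzmf and the other two less so. Gzmg was 89.1%, 89.8% and 88.1% identical to Gzmd, Gzme and Gzmf over the same 400 bases, so its counts carry a like limit. The sequences just upstream of the 3 genes are shown because these genes define the cells and cells differed in which of them they held. Each is the 250 bases before the RefSeq start of the gene on the minus strand of GRCm38.p6, written from 5′ to 3′. Capitals mark the core letters ACCACA bound by RUNX factors, on either strand (ACCACA or TGTGGT), and the cyclic AMP response element TGACGTCA.
Gzmd promoter (chr14:56132594-56132843): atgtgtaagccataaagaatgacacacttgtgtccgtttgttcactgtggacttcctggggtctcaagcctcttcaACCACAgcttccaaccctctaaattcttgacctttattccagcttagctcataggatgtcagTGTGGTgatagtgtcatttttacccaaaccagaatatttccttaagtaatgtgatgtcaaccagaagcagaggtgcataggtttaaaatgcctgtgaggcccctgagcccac
Gzme promoter (chr14:56120626-56120875): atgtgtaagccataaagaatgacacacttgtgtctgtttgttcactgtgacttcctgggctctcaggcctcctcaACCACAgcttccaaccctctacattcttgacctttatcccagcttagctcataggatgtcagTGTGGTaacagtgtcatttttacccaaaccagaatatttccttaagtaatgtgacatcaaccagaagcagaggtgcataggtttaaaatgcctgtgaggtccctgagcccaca
Gzmf promoter (chr14:56211408-56211657): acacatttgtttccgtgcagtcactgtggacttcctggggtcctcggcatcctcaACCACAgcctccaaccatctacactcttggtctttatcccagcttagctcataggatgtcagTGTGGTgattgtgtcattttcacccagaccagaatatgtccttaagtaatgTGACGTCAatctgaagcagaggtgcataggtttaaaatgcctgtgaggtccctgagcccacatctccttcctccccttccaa

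These stretches were 95.6% identical between Gzmd and Gzme, 88.2% between Gzmd and Gzmf and 88.6% between Gzme and Gzmf, counted over aligned positions. The RUNX core occurred 2 times in each of the 6 promoters of the cluster examined (Gzmd, Gzme, Gzmf, Gzmg, Gzmc and Gzmb), while 14.0% of all 32851 upstream windows of the same length held it at least once on either strand. TGACGTCA occurred once upstream of Gzmf, Gzmg and Gzmc, and these letters were not in the windows of Gzmd, Gzme and Gzmb; 508 windows (1.55%) held it. The AP-1 letters TGANTCA were in the Gzmb window alone among the 6, and 6.75% of all windows held them. The STAT letters TTCNNNGAA were in none of the 6, against 7.02% of all windows. A match describes the letters of the window and not a bound site.

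Granzyme cells took a far larger share of the CD8 T cells in the Arg library. They were 327 of 951 CD8 T cells there (34.4%, exact Clopper-Pearson interval 31.4% to 37.5%) and 73 of 1126 in the Control library (6.48%, 5.12% to 8.08%), a ratio of 5.30 (4.18 to 6.73). The gap widened with the number of granzyme transcripts asked of a cell. With at least 1 UMI the shares were 43.2% and 12.7% (ratio 3.40, 2.87 to 4.03), with at least 10 they were 28.7% and 3.91% (7.35, 5.41 to 9.98), and with at least 30 they were 19.9% and 1.87% (10.7, 6.85 to 16.6). Just outside the limit, 16 Arg and 9 Control cells held exactly 2 UMIs, and just inside it 7 and 7 held exactly 3. The 7 cells at exactly 3 UMIs were few of the 327 Arg granzyme cells but a larger part of the 73 Control ones. Of all barcodes kept, the granzyme cells were 2.36% and 0.541% (ratio 4.35).

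Thinning raised the ratio and leaving out called doublets moved it little. The granzyme cells had medians of 9866 UMIs in the Arg and 10912 in the Control library, deeper than the 7052.5 and 7315 of the other CD8 T cells. After each cell was thinned at random to 3000 UMIs, leaving out 13 and 20 shallower CD8 T cells, 275 of 938 Arg cells (29.3%) and 44 of 1106 Control cells (3.98%) still held 3 granzyme UMIs, a ratio of 7.37 (5.43 to 10.0). Scrublet, which scores barcodes by their likeness to simulated doublets, called 38 (11.6%) and 5 (6.85%) of the granzyme cells and 79 (12.7%) and 60 (5.70%) of the other CD8 T cells. They were kept, and without them the ratio was 5.41. Cell barcodes found in both libraries numbered 44 among all barcodes before filtering, and 2 of the Arg and 0 of the Control granzyme cells carried one.

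**Figure D1:**
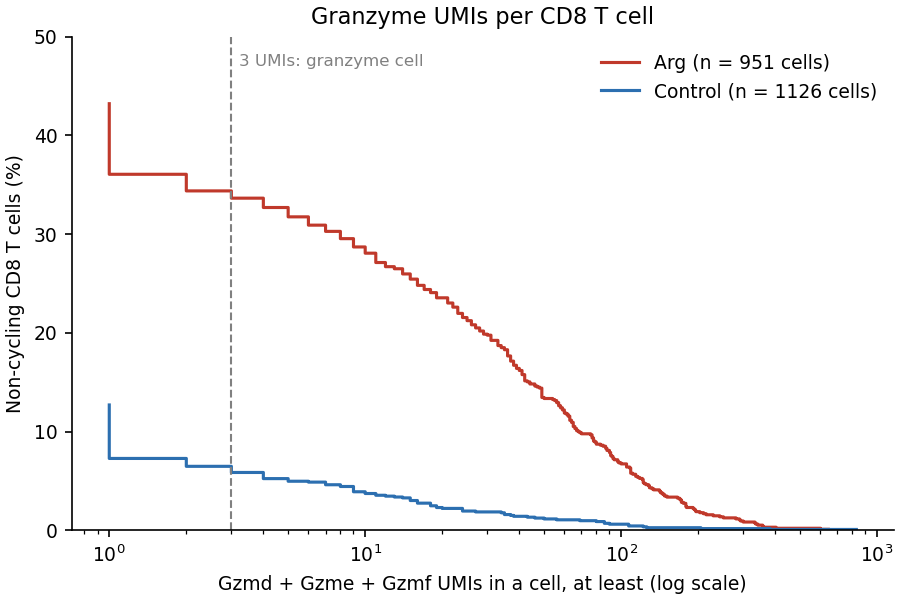
Share of the non-cycling CD8 T cells (vertical axis, percent) that held at least a given number of Gzmd, Gzme and Gzmf UMIs (horizontal axis, log scale), 1 line per library. The dashed line marks the limit of 3 UMIs, where the shares were 34.4% in the Arg and 6.48% in the Control library; at 30 UMIs they were 19.9% and 1.87%.

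The granzyme transcripts were not spread evenly over cell types. Among barcodes of a macrophage gate, which should lack these genes, 0.806% in the Arg and 0.312% in the Control library held 3 or more, at medians of 12228.5 and 13676 UMIs, which is a background that includes free RNA in the droplets. At least 1 UMI was held by 13.5% and 7.64% of these barcodes, against 43.2% and 12.7% of CD8 T cells. Dividing CD8 T cells held 3 or more in 124 of 250 cells (49.6%) in the Arg library and in 72 of 562 (12.8%) in the Control library. NK cells held them in 188 of 1177 (16.0%) and 64 of 490 (13.1%), so the libraries were much closer to each other in NK cells than in CD8 T cells. CD4 T cells held them in 6 of 425 (1.41%) and in 0 of 172, which allows a share of up to 1.74% where 3 counts are taken as the limit for a count of 0. The Arg CD4 T cells still held 3122 Gzmf UMIs in all, though 48 of them held any UMI of the 3 genes. Summed UMIs of Gzmd were 14615 and 7215 in NK cells against 9206 and 502 in CD8 T cells. For Gzme they were 4926 and 2549 against 5393 and 333, and for Gzmf 14542 and 7650 against 6806 and 2454. With the dividing cells counted in, 37.6% and 8.59% of all CD8 T cells passed (ratio 4.37, 3.68 to 5.19).

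Not only the number of granzyme cells but also their granzyme content differed between the libraries. An Arg granzyme cell held a median of 37 UMIs of the 3 genes (quartiles 15 and 84, highest 645), and a Control granzyme cell 15 (quartiles 7 and 35, highest 830). By number of UMIs, 54 Arg cells held 3 to 9, 84 held 10 to 29 and 189 held 30 or more, while 29, 23 and 21 Control cells did. The Arg cells were thus mostly at the high end and the Control cells spread nearly evenly over the 3 ranges.

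The kind of granzyme differed too. Gzmd was at 2357 CPM (the summed UMI count scaled to a fixed library total) in Arg and 532 in Control granzyme cells, Gzme at 1377 and 354, and Gzmf at 1743 and 2686. Gzmd and Gzme were thus higher in the Arg cells and Gzmf in the Control cells. One Control cell held 683 of the 2414 Gzmf UMIs there (28.3%), and without it Gzmf was at 1974 CPM, close to the Arg level. Of all UMIs of the 3 genes, Gzmf made up 31.8% in the Arg and 75.2% in the Control library, or 72.7% without that cell.

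Counted by cell, 166 Arg granzyme cells (50.8%) held Gzmd or Gzme without Gzmf, 154 (47.1%) held both kinds and 7 (2.14%) held Gzmf alone. In the Control library 15 (20.5%) held Gzmd or Gzme without Gzmf, 28 (38.4%) held both and 30 (41.1%) held Gzmf alone. Gzmf gave more than the other two together in 58 Arg cells (17.7%, 13.8% to 22.3%) and in 45 Control cells (61.6%, 49.5% to 72.8%). A kind can be missed in a cell with few transcripts. Among cells with at least 10 granzyme UMIs, Gzmf alone was found in 0 of 273 Arg cells, which allows a share of up to 1.10% by the same limit of 3 counts, and in 15 of 44 Control cells (34.1%).

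**Figure D2:**
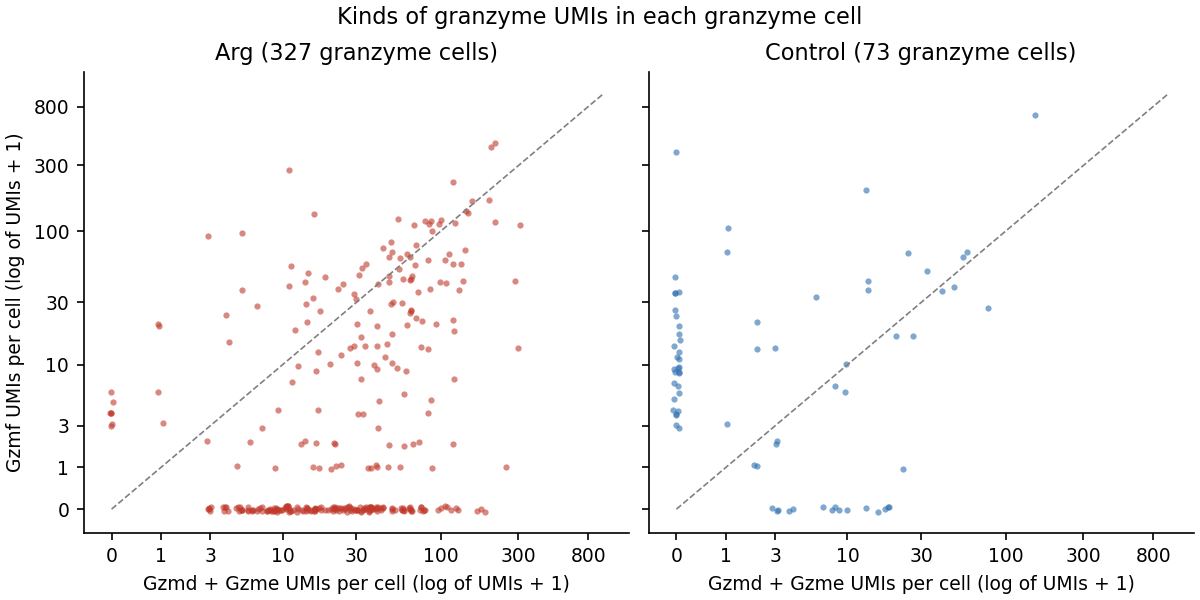
Gzmf UMIs (vertical axis) against Gzmd plus Gzme UMIs (horizontal axis) in each granzyme cell, on log axes of UMIs + 1, with 1 point per cell, a small random shift and a dashed line of equality, for 327 Arg (left) and 73 Control cells (right). Cells without Gzmf, 50.8% in the Arg and 20.5% in the Control library, lie along the bottom, and cells with Gzmf alone, 2.14% and 41.1%, along the left edge.

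Transcripts of other lineages were present beside the T cell genes and varied by library, which bears on every gene comparison below. The fibroblast list summed to 10.5 CPM in Arg and 2289.9 CPM in Control granzyme cells, where 1 cell held 80.5% of it. The macrophage list, found with all 12 of its 12 genes, summed to 1696 CPM in Arg and 1236 in Control granzyme cells and to 1822 and 1184 in the other CD8 T cells. The monocyte list, whose genes T cells share in part, summed to 3923 and 3683 CPM in granzyme cells and 3123 and 2929 in the other CD8 T cells. The NK and innate lymphoid list summed to 1263 and 905 against 1353 and 733, the gamma-delta T list to 36.0 and 188 against 19.1 and 139, and the CD4 and regulatory T list to 235 and 246 against 212 and 191. The dendritic cell list stood at 3049 and 1455 against 3579 and 1088, the neutrophil list at 153 and 225 against 96.2 and 154, and the B lineage list at 21.1 and 18.9 against 631 and 36.6. Of the 8 tumour epithelium genes, 5 in the Arg and 4 in the Control granzyme cells were at 0. Of the 8 mast cell genes, 4 were at 0 in the Control granzyme cells. The gene comparisons were therefore repeated without cells that held 5 or more UMIs of the fibroblast, B lineage, tumour or mast cell lists or 50 or more of the macrophage, dendritic cell or neutrophil lists, a choice made after the data were seen. Those are called mixed-lineage cells. Without them 277 Arg granzyme cells (34.5% of CD8 T cells) and 63 Control granzyme cells (6.08%) were left, a ratio of 5.67.

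Each gene was compared between granzyme cells and the other CD8 T cells of the same library, to ask what else these cells expressed. Counts were summed over cells and scaled to CPM, and a gene was called past 2-fold from the ratio of CPM after 5 CPM had been added to each side. A positive log2 ratio means higher in the granzyme cells. In the Arg library 51 of 6508 genes (0.784%) were past 2-fold higher and 103 (1.58%) lower. In the Control library 159 of 6651 (2.39%) were higher and 90 (1.35%) lower. Gzmd, Gzme and Gzmf, on which the cells were chosen, are among the higher genes of both libraries. Over all genes tested, 2744 were higher and 3764 lower in the Arg library (median -0.05), and 2993 and 3658 in the Control library (median -0.04), which is the background for every list below. TMM scaling, which sets the bulk of genes to be equal, gave 63 and 77 in the Arg and 149 and 92 in the Control library. Without mixed-lineage cells the counts were 66 (1.03%) and 146 (2.28%) of 6391 genes in the Arg library, and 45 (0.696%) and 131 (2.03%) of 6466 in the Control library. The Control count of higher genes thus depended on a few mixed-lineage cells. Gzmd, Gzme and Gzmf aside, 18 genes were higher in both libraries, 37.5% of the 48 in the Arg and 11.5% of the 156 in the Control library, and 36 were lower in both, 35.0% of 103 and 40.0% of 90.

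Neighbours of the 3 genes on chromosome 14 stood among the largest ratios. Gzmc, a granzyme of late effector cells, stood at 394 CPM in granzyme cells and 17.8 in the other CD8 T cells of the Arg library (22.1-fold, 17.99 to 27.4). In the Control library it stood at 509.6 against 8.58 (59.4-fold, 46.5 to 76.8). A single cell held 187 of the 458 Control Gzmc UMIs (40.8%), and 365 of 1531 in the Arg library came from 1 cell. Gzmg stood at 75.8 against 1.84 CPM in the Arg and 113 against 1.24 in the Control library, where 4 cells held all of it and 1 of them 86 of the 102 UMIs. Gzmb, the main death-inducing granzyme, was already abundant in the other cells. Its level was 2396 against 929 CPM in the Arg library (2.58-fold, 2.49 to 2.67) and 2289 against 969 in the Control library (2.36-fold, 2.25 to 2.48). By cell, its CPM had a median of 1550.5 (quartiles 682.5 and 2858) in Arg and 1567 (991.8 and 3174) in Control granzyme cells, and 385.5 (0 and 1394) and 501 (69.4 and 1333) in the other CD8 T cells. The middle ranges of granzyme and other cells overlapped for Gzmb in both libraries.

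Prf1, which encodes perforin, was higher as well. It stood at 1226 against 389 CPM in the Arg library (3.15-fold, 2.99 to 3.32) and 1255 against 560.5 in the Control library (2.24-fold, 2.10 to 2.39). Its median by cell was 957 CPM (quartiles 461 and 1697) in Arg granzyme cells and 116 (0 and 398) in the other Arg cells, so these middle ranges did not overlap. In the Control library the medians were 923 (404 and 1672) and 329 (93.6 and 771), and the ranges did overlap. The list of other granule and killing genes, with Prf1 among its 18 measured members, showed no such shift as a whole. In the Arg library 11 of its genes were higher and 7 lower, with Prf1 alone past 2-fold and a median log2 ratio of 0.12, and in the Control library 10 were higher and 8 lower with a median of 0.01.

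Granzymes of the other gene cluster went another way. Gzma, at chr13:113093825-113100981, stood at 462 against 234 CPM in the Arg library and at 10.0 against 111 in the Control library, so its direction differed between the libraries. It was held by few cells, 14.7% and 24.8% of granzyme and other cells in the Arg library and 4.11% and 11.3% in the Control library. The share of cells was thus lower in granzyme cells of both libraries, and 1 Arg granzyme cell held 19.9% of the 1798 UMIs. The rest of the 2 libraries held 671 and 237 CPM of Gzma, a gene that NK cells also express. Gzmk, beside Gzma at chr13:113171608-113225908 and known from memory-like effector cells, stood at 19.8 against 89.96 CPM in the Arg and 34.5 against 58.2 in the Control library.

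Inhibitors that shield killer cells from their own granzymes were higher together. Of the serpin list, 6 of 7 measured genes were higher in the Arg library, 3 past 2-fold with a median log2 ratio of 0.95, and 6 of 6 in the Control library, 2 past 2-fold with a median of 0.76. Serpinb9, the inhibitor of granzyme B, stood at 461 against 244 CPM in the Arg and 475 against 290.4 in the Control library. Its relative Serpinb9b stood at 377 against 66.5 (5.67-fold, 5.05 to 6.38) and 318 against 35.0 (9.09-fold, 7.72 to 10.7). Serpinb6b stood at 437 against 214 and 488 against 240.2. Serpinb9b was the most raised of the list in both libraries.

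**Figure D3:**
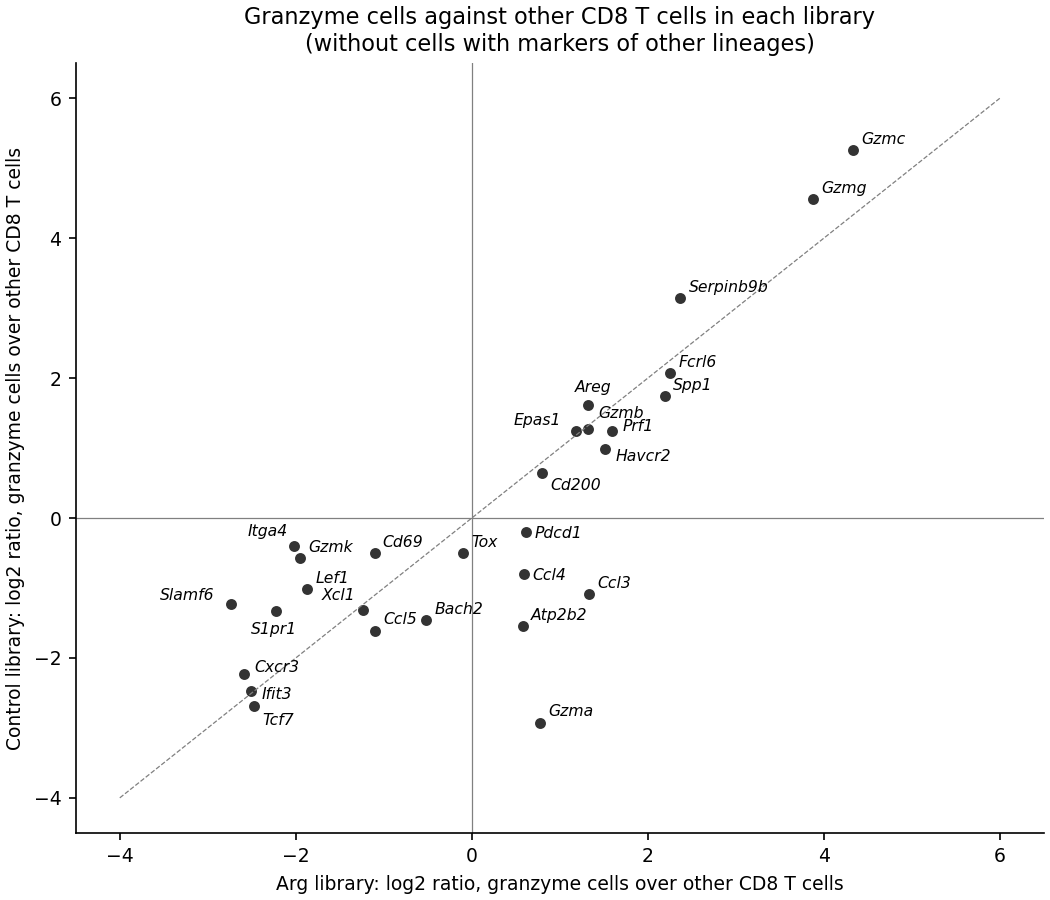
Log2 ratio of CPM (5 CPM added) of granzyme cells over the other CD8 T cells for named genes, in the Arg (horizontal axis) and Control library (vertical axis), without mixed-lineage cells; the dashed line marks equal ratios. Gzmc stood at the upper right at 4.34 and 5.26, and Gzma lay below the line, at 0.78 and -2.92.

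Several genes outside the granule system were past 2-fold higher in both libraries. Fcrl6, a receptor of the Fc receptor-like family found on killer cells, stood at 87.7 against 13.4 CPM in the Arg (6.54-fold, 5.07 to 8.54) and 82.3 against 17.1 in the Control library (4.83-fold, 3.61 to 6.42). Gipc2, a scaffold protein gene, stood at 94.9 against 26.8 and 79.0 against 16.4. Adarb2, of the family of RNA-editing enzymes, stood at 55.8 against 12.5 and 56.8 against 5.98. Galnt18, which encodes an enzyme of O-linked glycosylation, stood at 64.8 against 17.6 and 132 against 25.6, and Asph, an aspartate hydroxylase gene, at 79.7 against 26.2 and 60.1 against 21.2. None of these is a known component of the lytic granule, and Asph was as high in the rest of the libraries, at 97.8 and 90.7 CPM.

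Spp1, the gene of the secreted protein osteopontin, was the most abundant of the shared genes. It stood at 3341 against 873 CPM in the Arg library (3.83-fold, 3.70 to 3.96) and 2648 against 899.5 in the Control library (2.94-fold, 2.81 to 3.08). By cell its median was 2031 CPM (quartiles 834 and 4574) in Arg and 1064 (508 and 2494) in Control granzyme cells, against 184 (0 and 638) and 339.6 (117 and 895) in the other CD8 T cells. Macrophages express Spp1 strongly, and the remaining barcodes of the 2 libraries held 2022 and 2896 CPM. The Arg level in granzyme cells was thus above the level in the rest of its library and the Control level was not, and the part of free RNA was not tested.

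Cytokine genes did not move as a group. Of 16 measured in the Arg library 10 were higher and 6 lower, with a median log2 ratio of 0.32, and of 15 in the Control library 8 were higher and 7 lower, with a median of 0.00. Ccl5, a chemokine of memory and effector CD8 T cells, was lower in both, at 1553 against 3206 CPM in the Arg and 618 against 2183 in the Control library. Ccl3 stood at 734 against 359.8 in the Arg and at 216 against 502 in the Control library, which are opposite directions. The rest of the 2 libraries held 397 and 421 CPM of Ccl3. Ccl4 stood at 2128 against 1637 and 1337 against 2601, also in opposite directions. Xcl1, which draws cross-presenting dendritic cells, was lower in both, at 77.9 against 131 and 74.6 against 219.9. Ifng differed little, at 531 against 451 and 525 against 490.2. Areg, an epidermal growth factor-like ligand, stood at 138 against 64.6 and 205 against 76.6, in 14.1% of Arg and 13.7% of Control granzyme cells.

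Among inhibitory receptors the libraries parted. In the Arg library 13 of 17 measured genes were higher and 4 lower, 2 past 2-fold, with a median log2 ratio of 0.26, while in the Control library 5 of 16 were higher and 11 lower, with a median of -0.23. Havcr2, which encodes TIM-3, was higher in both, at 409 against 160.3 CPM in the Arg (2.55-fold, 2.35 to 2.77) and 300.4 against 154 in the Control library (1.95-fold, 1.71 to 2.23). Pdcd1, which encodes PD-1, stood at 399.8 against 253 in the Arg and 488 against 565 in the Control library. Lag3 stood at 246 against 153 and 155 against 139.5. Cd244a, a receptor shared with NK cells, stood at 49.1 against 18.5 and 86.8 against 57.7. Tnfrsf9, the costimulatory receptor 4-1BB, stood at 1178 against 619 and 1264 against 1042. Of the costimulation list as a whole 5 of 12 genes were higher in the Arg and 3 of 12 in the Control library.

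Cd200, at chr16:45382135-45409053, encodes a membrane ligand that inhibits myeloid cells bearing its receptor. Its level in granzyme cells was 194 against 104 CPM in the other CD8 T cells of the Arg library (1.86-fold, 1.67 to 2.08) and 125 against 84.1 in the Control library (1.48-fold, 1.20 to 1.81). It was found in 66.7% of Arg and 54.8% of Control granzyme cells and in 32.1% and 32.7% of the other CD8 T cells. With every cell thinned to 2000 UMIs these shares were 26.3% and 19.2% in granzyme cells and 12.8% and 14.1% in the others. The thinned macrophage gate, a background for free RNA, held it in 0.646% and 0.290%, well below the T cell shares.

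Genes of memory and of circulation were lower in both libraries. Of the naive and memory list 17 of 19 measured genes were lower in the Arg library, 7 past 2-fold with a median log2 ratio of -0.57, and 15 of 16 in the Control library, 7 past 2-fold with a median of -0.68. Tcf7, the transcription factor gene of self-renewing T cells, stood at 9.25 against 64.4 CPM in the Arg library (0.144-fold, 0.0990 to 0.203). In the Control library 1 Tcf7 UMI was found in the granzyme cells, 1.11 CPM against 33.8. Lef1, its relative, stood at 40.4 against 145 and 20.0 against 48.2. Slamf6, a surface marker of progenitor-like cells, stood at 5.14 against 56.7 and 8.90 against 24.8. Cxcr3, a homing receptor for inflamed tissue, stood at 5.40 against 57.3 in the Arg and 1.11 against 22.6 in the Control library. The list was not lower without exception. Il7r, the receptor chain for interleukin-7, stood at 399.8 against 373 in the Arg and 178 against 152 in the Control library.

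Other genes past 2-fold lower in both libraries lay outside that list. Aff3, a nuclear elongation factor gene, stood at 11.3 against 85.0 CPM in the Arg and 5.56 against 50.5 in the Control library. Emb, which encodes the adhesion protein embigin, stood at 105 against 439 and 37.8 against 138. Cxcr4, a chemokine receptor of homing to marrow and stroma, stood at 29.3 against 107 and 18.9 against 61.3. Sidt1, a lysosomal membrane protein gene, stood at 23.4 against 107 and 21.1 against 67.2. For Aff3 the ratios were of like size in both libraries, with log2 values of -2.46 and -2.39. By contrast, the low ratio of Igkc in the Arg library came from the other CD8 T cells, where 1 cell held 92.8% of the B lineage UMIs.

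Lists for signals that drive killer cells gave no common direction. Of the list of interleukin-2 receptor genes and STAT5 targets 7 of 19 were higher in the Arg and 9 of 18 in the Control library, with medians of -0.11 and 0.01. Il2rb, the signalling chain shared by interleukin-2 and interleukin-15, stood at 773 against 426 CPM in the Arg and 1103 against 819 in the Control library. Il2ra, the high-affinity chain, stood at 176 against 132 and 102 against 56.6. Of the T cell receptor signalling list 8 of 23 and 4 of 22 were higher, with medians of -0.06 and -0.17. Both interleukin-2 receptor chains were thus higher in granzyme cells while the list as a whole was not.

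Among transcription factors the differences were smaller. Of 13 genes tied to exhaustion, 8 were lower in the Arg library (median log2 ratio -0.08) and 11 in the Control library (-0.23). Tox, a factor of chronically stimulated T cells, stood at 326 against 344 CPM in the Arg and 659 against 982 in the Control library. Of 8 effector factors, 6 were higher in the Arg and 3 in the Control library. Irf8 was higher in both, at 824 against 381 CPM and 851 against 444. Epas1, which encodes the oxygen-sensing factor HIF-2α, was past 2-fold higher in both, at 112 against 47.4 and 72.3 against 30.5. Id2, which holds cells in an effector state, stood at 1661 against 1064 and 1463 against 1102.

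Adhesion, residency and NK receptor genes gave mixed counts. Of 9 residency genes 4 were higher and 5 lower in each library. Itga4, the integrin chain used to enter inflamed tissue, stood at 83.0 against 265 CPM in the Arg library and at 214 against 296 in the Control library. Cd69, a retention and activation marker, was lower in both, at 117 against 246 and 127 against 194. Of 10 NK receptor genes 7 were higher in the Arg and 4 in the Control library, with medians of 0.15 and -0.16. Klrd1, which encodes CD94, stood at 1356 against 823 in the Arg and 921 against 904 in the Control library. Klri2 stood at 132 against 62.0 and 66.8 against 64.9.

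Genes of the type I interferon response were also mostly lower in both libraries. Of the type I interferon list 16 of 18 genes were lower in the Arg library, 4 past 2-fold with a median log2 ratio of -0.63, and 13 of 16 in the Control library, 3 past 2-fold with a median of -0.62. Without mixed-lineage cells 16 of 16 and 13 of 14 were lower, with medians of -1.22 and -0.84. Ifit3, which restrains viral RNA, stood at 18.5 against 56.7 CPM in the Arg and 5.56 against 33.9 in the Control library. Genes of the interferon-gamma list were lower in 19 of 20 and 13 of 20, with medians of -0.42 and -0.19. Myeloid cells express many of these genes, and their lists are given above beside each kind of cell.

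Metabolic genes differed little. Of the glycolysis list 15 of 22 genes were higher in the Arg and 17 of 23 in the Control library, with medians of 0.14 and 0.12. Of the oxidative phosphorylation list 22 of 25 were higher in each, with medians of 0.08 and 0.14 and none past 2-fold. Of the list of arginine, polyamine and transport genes 6 of 15 were higher and 9 lower in the Arg library (median -0.15), and 4 of 13 were higher and 9 lower in the Control library (-0.12). Slc7a1, the main arginine transporter of T cells, stood at 62.2 against 76.7 CPM and 61.2 against 87.6. Of the amino acid starvation list 4 of 12 were higher in each library.

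Within the CD8 T gate, several genes followed the granzyme count from range to range. Over cells with 0, 1 to 2, 3 to 9, 10 to 29 and 30 or more UMIs of the 3 granzymes, Prf1 stood at 376, 455, 712, 922 and 1451 CPM in the Arg library. In the Control library it stood at 548, 711, 971, 1291 and 1599.9 CPM. Prf1 was thus higher in every next range of both libraries. Spp1 stood at 786, 1337, 1999, 2625 and 3902 CPM in the Arg library and at 890.2, 1014, 2631, 1745 and 3584 in the Control library, where the order was broken once. Ccl5 stood at 3342, 2480.4, 1890.4, 1267 and 1572 in the Arg and at 2249, 1379, 1001, 284 and 440.1 in the Control library, lowest not in the top range but in the one before it. Cd200 stood at 104, 106, 129, 142 and 227 in the Arg and at 85.9, 61.4, 122, 107 and 145 in the Control library. Itga4 parted the libraries, at 274, 217, 77.6, 96.9 and 79.5 in the Arg and at 298, 273, 203, 210.3 and 231 in the Control library. The ranges also differ in depth, since deeper cells show more UMIs of any gene.

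**Figure D4:**
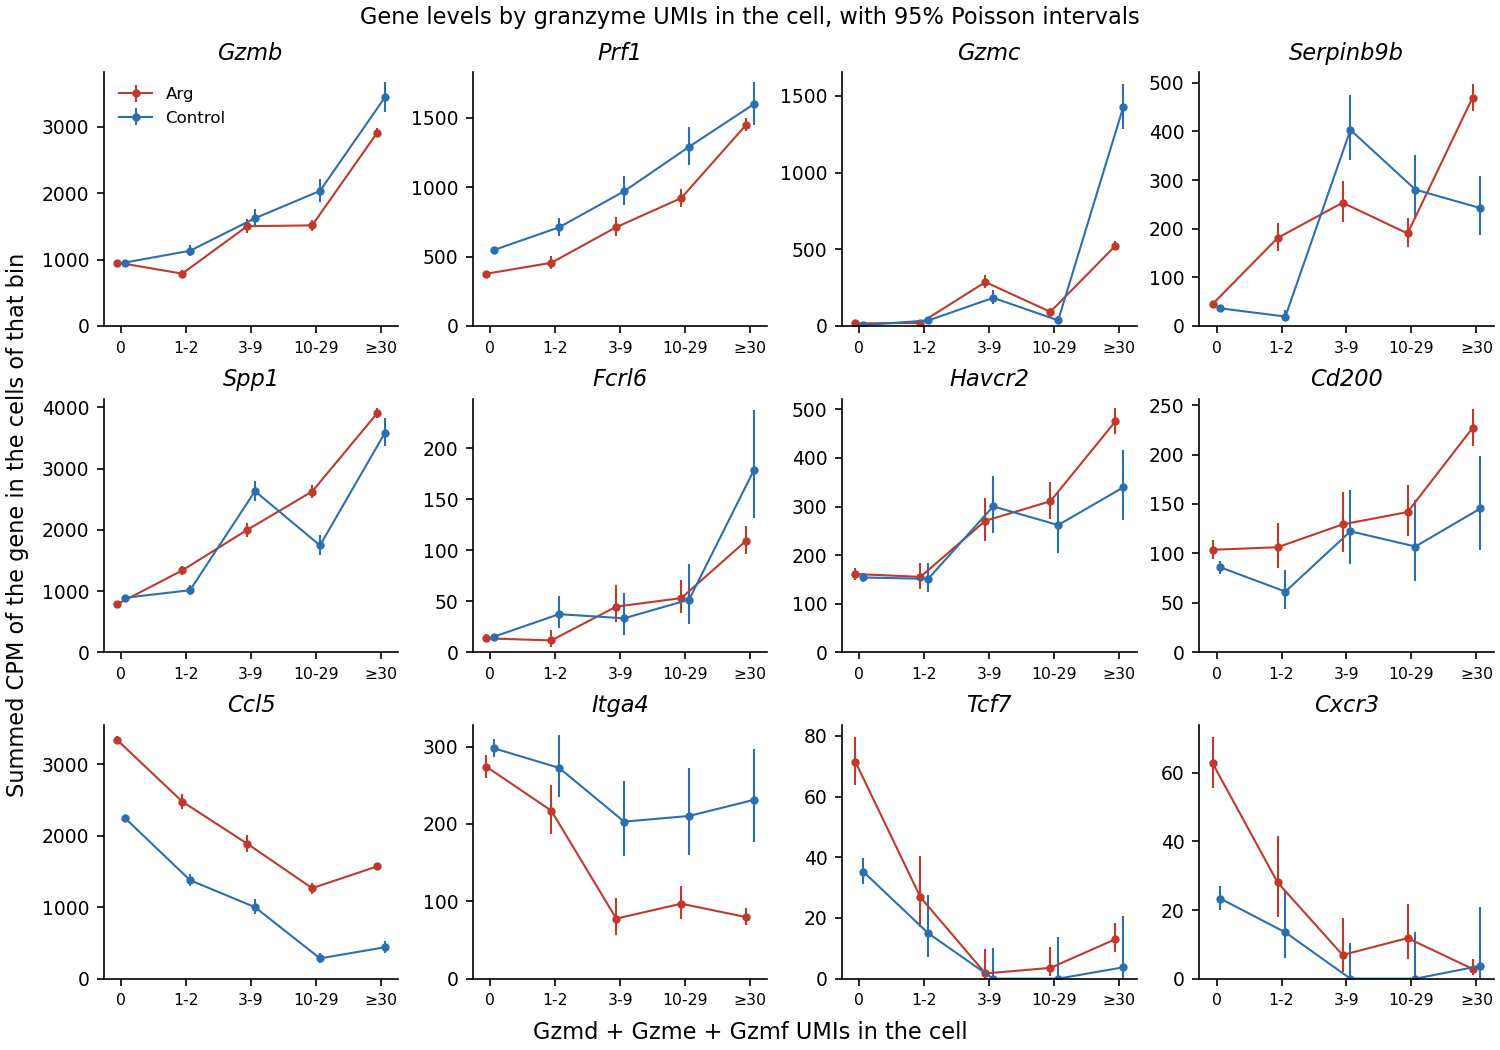
Summed level of selected genes (vertical axis, CPM) in non-cycling CD8 T cells with 0, 1 to 2, 3 to 9, 10 to 29 and 30 or more UMIs of Gzmd, Gzme and Gzmf (horizontal axis), 1 line per library, with exact Poisson intervals for counting error. Prf1 was higher in every next range, from 376 to 1451 CPM in the Arg library, while Ccl5 was highest in cells with none.

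The genes most like the granzyme signal were sought across all CD8 T cells with at least 2000 UMIs, 946 in the Arg and 1123 in the Control library, by Spearman's rank correlation of CPM over 8820 genes. Ranked by the smaller of the 2 values, the first 10 were Gzmc, Fcrl6, Gzmb, Irf8, S100a4, Prf1, Serpinb9b, Gipc2, Nrgn and Spp1. Their rho ran from 0.38 to 0.58 in the Arg library and from 0.18 to 0.33 in the Control library. Prf1 was at 0.56 and 0.20, Irf8 at 0.51 and 0.20, and Gzmc at 0.38 and 0.33. Cells of a library share their preparation and differ in depth, and the Control values were weak, so the list is a description only.

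Granzyme cells were then compared between the libraries, to ask whether those of the Arg library differed from those of the Control library beyond their number. Of 6671 genes 145 (2.17%) were past 2-fold higher in the Arg granzyme cells and 198 (2.97%) lower. TMM scaling gave 173 and 177. Without mixed-lineage cells 110 (1.71%) and 84 (1.31%) of 6416 genes were past 2-fold. Over all genes 3419 were higher and 3252 lower, with a median of 0.01. For many genes the same ratio in the other CD8 T cells is given beside it, since a difference of the whole library touches both.

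Genes of macrophages and fibroblasts stood among the largest differences. Mmp12, a macrophage protease, was at 409.5 CPM in Arg and 16.7 in Control granzyme cells, but also at 348 and 68.9 in the other CD8 T cells and at 1194 and 356 in the rest of the libraries. Without mixed-lineage cells its log2 ratio dropped from 4.26 to 2.28, and that of Pf4, a chemokine gene of platelets and macrophages, from 3.14 to 0.67. Arg1, arginase of myeloid cells, stood at 169 and 8.90 CPM in the granzyme cells and at 539 and 248 in the rest. In the other direction, Col1a2, a collagen gene, owed 74.1% of its Control UMIs to 1 cell, Il1rl1 84.4%, Csrp2 75.4% and Fn1 73.4%. The part of other cells' RNA in these differences was not tested.

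Among the genes named by size Gzma had the largest log2 ratio, 4.96 in granzyme cells and 1.04 in the other CD8 T cells, from the levels of 462 and 10.0 CPM given above. Serpine2, a secreted inhibitor of serine proteases, stood at 227 in Arg and 50.1 in Control granzyme cells (4.53-fold, 3.36 to 6.26), in 59.0% and 16.4% of them. Its log2 ratio was 2.07, and 1.46 in the other CD8 T cells, and without mixed-lineage cells it was 2.89. Atp2b2, which encodes a calcium pump of the plasma membrane, stood at 83.8 and 12.2 CPM, in 34.9% and 8.22% of cells. Its log2 ratio was 2.36 in granzyme cells and 0.38 in the other CD8 T cells, and the rest of the libraries held 1.64 and 0.96 CPM. Gzma and Atp2b2 thus had larger ratios in granzyme cells than in the other CD8 T cells, and that contrast was not tested.

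Cytokine genes were higher in the Arg granzyme cells. Of 16 measured genes 15 were higher and 1 lower, 6 past 2-fold, with a median log2 ratio of 0.72. In the other CD8 T cells 9 of 16 were higher and 7 lower, 4 past 2-fold, with a median of 0.36. In granzyme cells Ccl3 was at 734 and 216 CPM (log2 ratio 1.74, others -0.48) and Ccl5 at 1553 and 618 (1.32, others 0.55). Csf2, the growth factor of granulocytes and macrophages, stood at 59.4 and 24.5 CPM, where 1 cell held 14 of the 22 Control UMIs. Its log2 ratio was -0.42 among cells with 3 to 29 granzyme UMIs. Penk, which encodes an opioid precursor, stood at 85.1 and 20.0, and Tnfsf11, the ligand RANKL, at 51.9 and 15.6. These 5 and the chemokine gene Ccl1 (1.02, others 1.41) were the 6 past 2-fold, though the Ccl1 ratio was -0.25 after thinning to 3000 UMIs. Ccl1 was found in 16 of the 327 Arg granzyme cells, and 1 of them held 215 of its 397 UMIs (54.2%). The Arg cell with the most UMIs held 27.7% of those of Csf2, 16.8% of those of Tnfsf11 and 14.8% of those of Penk. Penk was also higher in the Arg library among CD8 T cells with 0 granzyme UMIs, at 41.0 and 18.2 CPM. Without mixed-lineage cells 13 were higher and 3 lower, with the same median of 0.72.

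Of 10 NK receptor genes 9 were higher in the Arg granzyme cells, with a median of 0.52 against 0.08 in the other CD8 T cells. The 3 past 2-fold were Ncr1, Tyrobp and Fcgr3, which NK and myeloid cells express, at 1.28, 1.0 and 1.86, and at 1.34, 0.94 and 1.55 in the other CD8 T cells. Of the naive and memory list 9 of 12 measured genes were higher, 4 past 2-fold, with a median of 0.51 beside 0.58 in the other cells. Bach2, a repressor that preserves memory, stood at 281 and 86.8 CPM (log2 ratio 1.64), and Il7r at 399.8 and 178 (1.14, others 1.27). The median of the list thus stood as far from 0 in the other CD8 T cells as in granzyme cells, while Bach2 (others 0.53) and the lymph node homing receptor gene Ccr7 (1.60, others 0.41) had larger ratios in the granzyme cells. Of the inhibitory receptors 9 of 16 were higher and 7 lower, with a median of 0.28 beside -0.19 in the other cells. The median in granzyme cells was 0.08 without mixed-lineage cells and -0.044 after thinning to 3000 UMIs. Cd200 had a log2 ratio of 0.62, against 0.29 in the other cells, and Pdcd1 of -0.29, against -1.14.

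Other genes were lower in the Arg cells. Tox was at 326 and 659 CPM (log2 ratio -1.0, others -1.5) and Ikzf2, which encodes Helios, at 208 and 525 (-1.31, others -1.36). Of the 13 genes tied to exhaustion, 5 were higher and 8 lower, 2 past 2-fold, with a median of -0.16 (others -0.32). Tcrg-C2, a constant gene of the gamma chain of the T cell receptor, was at 9.77 and 124 CPM (-3.12, others -2.95). It was found in 7.03% and 46.6% of granzyme cells and, after thinning to 2000 UMIs, in 2.14% and 16.4%, against 0.0431% and 0.0790% of the macrophage gate. A difference of like size thus stood in the other CD8 T cells. Itga4 was at 83.0 and 214 (-1.31, others -0.16), a ratio farther from 0 in the granzyme cells than in the others, which was not tested.

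Genes of cholesterol synthesis were lower in Arg granzyme cells in 7 of 8 measured, 4 past 2-fold, with a median log2 ratio of -0.93 against -0.46 in the other CD8 T cells and -1.03 without mixed-lineage cells. Among them Cyp51 was at -1.22 (others -0.66), Idi1 at -1.20 (others -0.50) and Hmgcs1 at -1.07 (others -0.46). All 12 measured cell cycle genes were lower, 2 past 2-fold, with a median of -0.35 (others -0.54), among them the replication helicase genes Mcm2 at -1.30 and Mcm3 at -1.02. Since the gate left out dividing cells, these values are for cells with little of Mki67, Top2a, Nusap1 and Birc5. Of 22 genes known to respond to tissue dissociation 16 were lower, 5 past 2-fold, with a median of -0.39 (others -0.21), and their part in the other differences was not tested.

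The lists tied to the diet showed no common shift. Of 13 amino acid starvation genes 7 were higher and 6 lower, with a median of 0.09 in granzyme cells and in the other CD8 T cells alike, and -0.29 without mixed-lineage cells. Of 15 arginine, polyamine and transport genes 8 were higher and 7 lower, 5 of them past 2-fold higher, with a median of 0.02 (others 0.10). The 5 were the arginase genes Arg1 and Arg2, Ass1 of arginine synthesis, Nos2 of nitric oxide synthesis and Smox of polyamine breakdown. All 5 were past 2-fold higher in the other CD8 T cells too, and macrophages are a known source of several of them. The log2 ratio of Nos2 was -0.044 after thinning to 3000 UMIs, so little difference was left, and 1 Arg granzyme cell held 23.4% of its UMIs. Slc7a1 was at 62.2 and 61.2 CPM. Of 15 type I interferon genes 9 were higher and 6 lower, with a median of 0.43 (others 0.59). Without mixed-lineage cells 8 genes of the list were still measured, 3 higher and 5 lower, with a median of -0.30. The 2 medians are thus over different sets of genes.

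**Figure D5:**
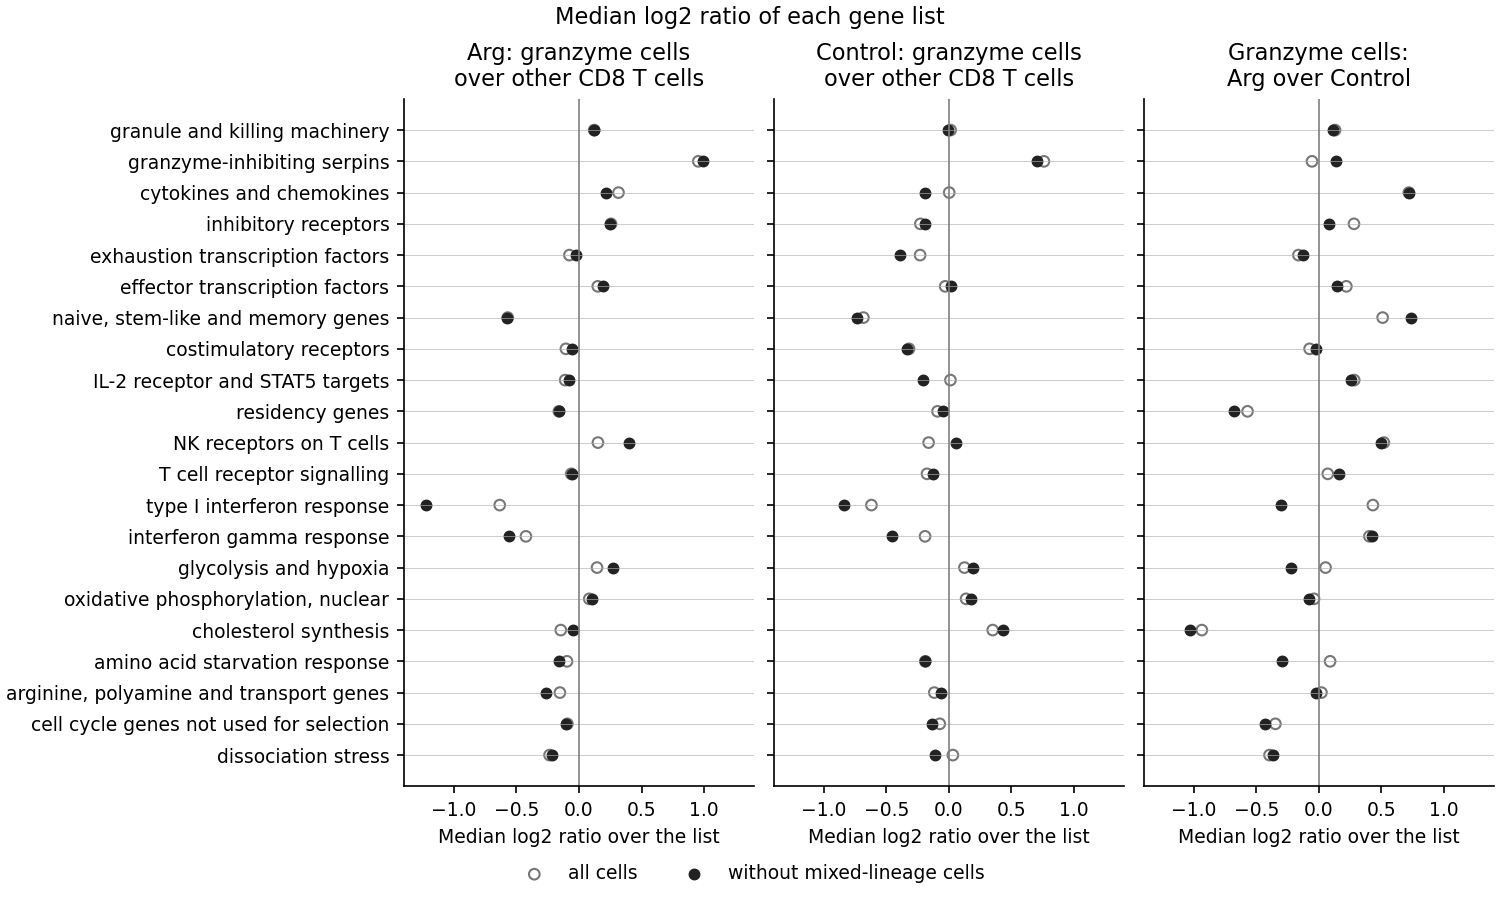
Median log2 ratio of each gene list (horizontal axis) for granzyme cells over other CD8 T cells in the Arg (left) and Control library (middle) and for Arg over Control in granzyme cells (right), with all cells (open points) and without mixed-lineage cells (filled points). On the right the cytokine list stood at 0.72 and cholesterol synthesis at -0.93 over all cells. The type I interferon list stood at 0.43 over 15 measured genes, and at -0.30 over 8 without mixed-lineage cells.

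The Arg granzyme cells were numerous enough to be divided by Gzmf. The division was chosen after the values were seen and used cells with at least 10 granzyme UMIs that were not mixed-lineage, 121 with Gzmf and 107 without. The former held more granzyme UMIs (median 80 against 31) and somewhat more UMIs in all (9975 against 8854). Of 6309 genes 37 (0.586%), Gzmf itself among them, were past 2-fold higher with Gzmf and 76 (1.20%) lower. Gzmg was at 200.5 CPM with Gzmf and 17.4 without (11.5-fold, 7.07 to 20.1), and Gzmc was found in 52.9% and 13.1% of cells. Gzmg and Gzmc, which flank Gzmf among the genes placed above, were higher with it, and Gzmb (3388 and 2479.6 CPM) and Prf1 (1695 and 1268) less so. Both also rose with the granzyme count in the Arg library. From cells with 10 to 29 granzyme UMIs to those with 30 or more, Gzmc went from 92.2 to 522 CPM and Gzmg from 8.27 to 116. Whether the difference by Gzmf goes beyond that of granzyme count was not tested, and 50 of the 327 Arg granzyme cells held Gzmg. Whether reads of Gzmf were counted as Gzmg was not tested. Il1r2, the decoy receptor for interleukin-1, stood at 120.0 and 35.8, Ifitm1, an interferon-induced membrane protein gene, at 566 and 186, and Fcrl6 at 139 and 60.3. Lower with Gzmf were Ccr7, the lymph node homing receptor, at 20.9 and 106, Tnfsf8, the ligand of CD30, at 5.96 and 50.1, Tnfsf11 at 30.6 and 121, Areg at 84.2 and 235, and Penk at 67.1 and 173. Ccl5 was at 1222 and 2458 and Cd200 at 192 and 289.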

How the data were processed

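Droplet single-cell RNA sequencing (3′ v3 chemistry) of CD45-positive tumour cells gave 1 library per diet. The deposited values are raw UMI counts for 32285 genes, not normalized by the authors. Cell Ranger 7.0.1 made them per the file headers, but the submitters' processing notes list version 2.2.2 with GRCm38; which one applies could not be settled. The labels do not say whether reads in introns counted, which would change genes with long introns or overlapping neighbours. The 14540 Arg and 14343 Control barcodes held 155927693 and 191505551 UMIs, each at least 500. Barcodes with at least 200 genes and at most 10% mitochondrial UMIs were kept (13875 and 13487, medians of 8594 and 10395 UMIs).

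The members and gene lists were chosen with earlier results of these data known. Counts were summed per library and kind of cell and given as CPM. Ratios were taken with 5 CPM added for genes at 20 CPM or more in either group, and 2-fold or more is called. The self-test, on simulated independent counts for the comparisons within each library, recovered known changes set in genes of 50 CPM or more. It did not cover UMIs held mainly by a few cells, mixed-lineage cells or the comparison between libraries. Genes named by size had at least 50 CPM and a UMI in 10% of cells in the higher group, and at least 0.25 times the level in the rest of the library, and the 10 highest and lowest of each comparison could be named. Intervals are exact Poisson for counts, Clopper-Pearson for shares, log-scale for ratios of shares and conditional binomial for ratios of counts, all at 95%. They take every UMI as independent, so a gene held mainly by a few cells varies more than they show. PCR copies are collapsed by UMI, and intervals cover counting error only. Scrublet (expected share 8%, seed 1) calls were kept and removed as an alternative. Alternatives, given below, changed limits, pseudocounts, filters, thinning and TMM scaling. Gene positions came from GENCODE M21 and promoter sequences from RefSeq on GRCm38.p6. TMM factors came from edgeR 4.0.16 (R 4.3.3). Everything else ran in Python 3.11.15 (scanpy 1.11.5, scipy 1.17.1, numpy 2.4.6, pandas 2.3.3, Biopython 1.88, matplotlib 3.10.9, scikit-image 0.26.0).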

Additional observations from a re-analysis of the deposited data

Results flagged for a closer look

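Gzma, Ccl3, Atp2b2 and Fn1 stood out because they lay in opposite directions in the 2 libraries when granzyme cells were set against the other CD8 T cells. The difference between the libraries was not tested, since each had 1 library. Gzma, a granzyme of killer cells, had a log2 ratio of 0.97 in the Arg and -2.95 in the Control library. Ccl3, a chemokine gene, had 1.02 and -1.20. Atp2b2, a calcium pump gene, had 0.59 and -1.39. Fn1, which encodes fibronectin, had -1.0 and 1.38, and 1 Control cell held 73.4% of its UMIs in the Control granzyme cells. Without mixed-lineage cells Gzma had 0.78 and -2.92, Ccl3 1.33 and -1.09 and Fn1 0.20 and -0.88, so the order for Fn1 turned around.

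Dividing CD8 T cells, which no gene comparison used, held 3 or more granzyme UMIs in 49.6% of cells in the Arg library, above the 12.8% of the Control library. Their medians were 16858 and 14751.5 UMIs, deeper than the cells that were compared.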

How the results depend on the processing

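With 1 library per diet no replicate could be left out. No paired analysis was possible because each diet had 1 library and no test was made. The share of granzyme cells was higher in the Arg library under every alternative run, and of the values for shares and counts of genes 64 stayed within 1.5 times or their interval and 40 moved. Of the named genes' values 4967 stayed, 1291 moved and 30 reversed, and of list medians 959 stayed, 88 moved and 9 reversed. Counts below are genes past 2-fold, higher then lower, and ratios are log2. Granzyme over other CD8 T cells is written as within Arg or within Control, and the comparison of granzyme cells as between libraries. The causes were not tested, except that fewer cells or genes entered the stricter settings.

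With 1 granzyme UMI asked of a cell, the share ratio was 1.77, the counts within Control 70 and 25, Mmp12 and Pf4 within Control 1.26 and 0.016, and the granzyme list median between libraries 0.083. With 10 UMIs the share ratio was 2.88, the counts within Control 88 and 194, the higher count between libraries 265, Il1rl1, Col1a2, Csrp2 and Fn1 within Control -0.29, -2.39, -0.81 and -2.71, and Fn1 between libraries 1.01. Thinning to 3000 UMIs gave a share ratio of 2.88 and counts of 84 and 199 within Arg, 351 and 665 within Control and 709 and 482 between libraries. It put Col1a2, Csrp2, Fn1 and Slit3 within Control at -1.32, -1.59, -2.32 and -0.10, and the inhibitory receptor median, Nos2, Ccl1, Csrp2 and Fn1 between libraries at -0.044, -0.044, -0.25, 0.31 and 0.64.

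Without any C1q UMI, which left 109 and 15 granzyme cells, the higher count within Arg was 82, the counts within Control 300 and 675, and those between libraries 774 and 379. Fn1 within Arg was 0.59; Il1rl1, Col1a2, Csrp2, Nrg1, Fn1 and Slit3 within Control were -1.92, -0.48, -0.97, 1.09, -0.019 and -0.069. Between libraries the granzyme and dissociation medians were 0.88 and 0.081, and Il1rl1, Csrp2 and Fn1 0.98, 0.41 and 0.43. Removing doublets put the type I interferon median between libraries at -0.085. Leaving out mixed-lineage cells put it at -0.30 over the 8 genes then measured, with Ifi44 at -0.042. The latter choice gave 45 higher genes within Control and 84 lower between libraries, and Fn1 at 0.20 within Arg, -0.88 within Control and 0.87 between libraries.

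A pseudocount of 1 CPM gave 137 lower within Control, and one of 20 CPM gave 26 and 51 within Arg, 87 and 30 within Control and 67 and 121 between libraries. Genes of 50 CPM or more gave 60 lower within Arg, 58 and 38 within Control and 79 and 63 between libraries. With no filter there were 165 lower within Arg, 283 and 173 within Control and 269 and 438 between libraries, with the cholesterol median within Control at -0.11 and the granzyme median between libraries at 0.066. The mean of per-cell CPM gave 102 higher within Control and 129 lower between libraries. With granzyme cells of 3 to 29 UMIs alone, the granzyme median between libraries was 0.12 and Csf2 -0.42. The last alternative and that on mixed-lineage cells were chosen after the data were seen. The number of Control granzyme cells, 73, limits the values that rest on them.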
